A study of Mus musculus with 8 samples.

Results

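The genes described here are those of mitosis and chromosome segregation, a fixed list of 42 genes whose products drive cells into mitosis, build the spindle, attach chromosomes to it and cut the dividing cell. The list was chosen with earlier results of these data known. A gene was counted as measured where a probe set was annotated to its symbol alone. This gave 41 of the 42 genes, of 19938 genes measured in all. Ccnb1, the B-type cyclin of mitotic entry, was not analysed here. The cortex of mouse embryos was sampled at embryonic day 16, on a mixed strain background, and its RNA was hybridised to 8 Affymetrix whole-transcript arrays. The 4 VEGF-labelled arrays, called VEGF 1 to VEGF 4, come from bitransgenic embryos that carry GFAP-tTA, a tetracycline-controlled transactivator under the promoter of Gfap, and TetO-VEGF-A164, a responder transgene for the growth factor VEGF-A. The 4 control arrays, called control 1 to control 4, are labelled wild type, and the protocol describes them as lacking TetO-VEGF-A164 without saying whether they carry the transactivator. The question addressed is how overexpression of VEGF-A goes with the expression of these genes in the cortex. The effect of the growth factor and those of the transactivator and the transgene insertions cannot be told apart. The labels do not say whether embryos were pooled or came from separate litters, so p-values measure only the spread between these arrays. The authors deposited log values whose base is taken as 2, and each probe set is centred on its median over the 8 arrays. A value of 0 is therefore the middle of the 8 arrays, levels of different genes cannot be compared, and the presence of cortical markers cannot be checked.

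Mitosis begins when the kinase Cdk1, bound to A-type and B-type cyclins, phosphorylates a large set of proteins, and it ends when the anaphase-promoting complex has these cyclins degraded. In between, kinetochores join chromosomes to spindle microtubules, a checkpoint holds anaphase until all are attached, and the chromosomal passenger complex corrects wrong attachments. In the embryonic cortex the dividing cells are mainly radial glia at the ventricle and intermediate progenitors above them, while neurons have left the cycle. Most of these genes are transcribed in G2 and mitosis. Their promoters are known for the cell cycle genes homology region (CHR), where the MuvB complex binds, as part of the DREAM repressor in resting cells and together with B-Myb and FoxM1 in cycling ones, and for CCAAT boxes, where NF-Y binds.

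Promoters are shown because the measured members were high and low on the same arrays, as the values further on show. RefSeq's promoter table (GRCm38.p6), which holds 250 bases before and 50 after each start site, had 37 promoters for 34 of the 41 measured members, 3 of them with 2 starts each. The other 7 members are Aurkb, Ccna2, Cdc25c, Foxm1, Incenp, Kif20a and Tpx2. The members with 2 starts are Bub3, Ect2 and Prc1. In each of these the 2 windows overlap, and the same motif matches are counted for both starts in the shares below. The CHR core TTTGAA occurred on either strand in 30 of the 37 member promoters (81.1%), against 17.9% of the 32851 promoters in the table. The letters CCAAT occurred in 28 of the 37 (75.7%), against 37.4% of all promoters. Both motifs were found in 26 of the 37 (70.3%), against 6.95% of all. The letters of the motifs can share at most 1 base. The E2F-like letters GCGGGAA occurred in 0 of the 37, against 4.6% of all promoters. These are matches of letters, not shown sites. The list is made mostly of genes known for the CHR and CCAAT motifs, so the shares describe the list and not these arrays. Whether the motifs have a part in the shared array pattern was not tested. The 4 promoters printed are those of the members with the smallest p among those holding both motifs. Each runs from position -200 to position 25 around the start site, where -1 is the last base before it, written 5′ to 3′ on the gene's own strand, with CHR and CCAAT letters of either strand in capitals.
Ccnb2, minus strand, chr9:70421530-70421754: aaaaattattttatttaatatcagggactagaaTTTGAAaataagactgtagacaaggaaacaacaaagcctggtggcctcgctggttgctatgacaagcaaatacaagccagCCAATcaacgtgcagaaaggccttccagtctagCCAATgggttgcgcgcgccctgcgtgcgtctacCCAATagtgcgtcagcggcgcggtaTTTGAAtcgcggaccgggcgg
Cdk1, minus strand, chr10:69352888-69353112: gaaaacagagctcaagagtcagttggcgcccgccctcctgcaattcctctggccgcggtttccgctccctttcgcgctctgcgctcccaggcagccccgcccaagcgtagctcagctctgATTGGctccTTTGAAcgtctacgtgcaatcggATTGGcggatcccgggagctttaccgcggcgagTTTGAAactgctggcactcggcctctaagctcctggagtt
Cenpa, plus strand, chr5:30666686-30666910: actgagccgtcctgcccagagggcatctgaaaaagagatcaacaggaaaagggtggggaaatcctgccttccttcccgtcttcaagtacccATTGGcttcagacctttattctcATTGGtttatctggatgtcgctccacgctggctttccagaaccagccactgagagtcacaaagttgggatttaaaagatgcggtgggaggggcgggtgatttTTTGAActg
Ttk, plus strand, chr9:83834489-83834713: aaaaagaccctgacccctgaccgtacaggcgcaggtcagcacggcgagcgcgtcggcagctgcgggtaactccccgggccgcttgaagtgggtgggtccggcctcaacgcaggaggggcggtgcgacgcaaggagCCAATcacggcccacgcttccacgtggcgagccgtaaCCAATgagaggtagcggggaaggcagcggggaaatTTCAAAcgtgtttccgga

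In Ccnb2 CHR matches began at -167 and at 5, the second of them downstream of CCAAT matches at -87, -54 and -21. In Cdk1 the CHR matches began at -71 and -15 and the CCAAT matches in the window shown at -80 and -48. Cenpa had its CHR match at 17 and CCAAT matches at -109 and -86, and Ttk had them at 8 and at -65 and -28. Within the 50 bases after the start site, 19 of the 37 member promoters (51.4%) held a CHR match, against 2.25% of all promoters. CCAAT matches lay mostly upstream. Within the last 50 bases before the start site, 19 (51.4%) held one, against 9.03% of all, and 18 (48.6%) did in the next 50 bases further up, against 12.5% of all. The promoters of Birc5, Mad2l1, Melk, Nuf2 and Nusap1 held neither motif in the window.

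**Figure D1:**
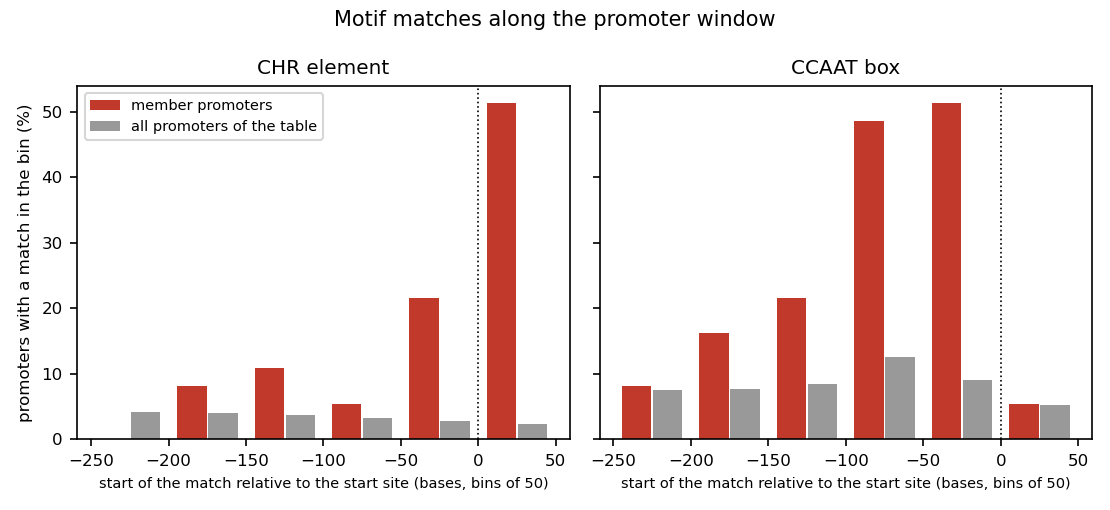
Share of promoters (%) with a CHR match (left) or a CCAAT match (right) in bins of 50 bases around the start site, for the 37 member promoters (red) and all 32851 promoters of the table (grey). CHR matches of the members pile up just after the start site (51.4% against 2.25% of all), and CCAAT matches in the 2 bins before it.

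Vegfa itself did not separate the groups, at 0.014 ± 0.064 in the VEGF-labelled arrays and -0.039 ± 0.081 in control (SD, n = 4 each), with an adjusted p of 0.748 in limma. It was read by 1 probe set, and no source used here says whether that probe set detects the transgene. Of 19938 genes, 0 passed an adjusted p of 0.05 in limma (0%), and at an unadjusted p under 0.05 there were 921 higher (4.62%) and 1563 lower (7.84%). The median difference over all genes was -0.010. Xist, which marks female cells, was high on 2 of the 4 VEGF-labelled arrays, VEGF 2 and VEGF 3, and on 1 of the 4 control arrays, control 3. VEGF 3 stood apart in several lists of other cells, with the mean of 8 meningeal and fibroblast genes at -0.46 and that of 11 genes of the ganglionic eminence at -0.68.

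All 41 measured mitosis genes had a higher mean in the VEGF-labelled arrays than in control. Among all genes 43.3% did. The differences were small, from 0.034 for Spc25 to 0.38 for Kif20b, with a median of 0.21 on the log2 scale, which was 0.14 without VEGF 3. If the base is 2, these are 1.02-fold and 1.3-fold at the ends. None of the 41 passed the test over all genes, with adjusted p between 0.243 and 0.953 in limma (0 of 19938 genes passed). At an unadjusted limma p under 0.05 there were 22 of the 41, all higher, against 4.62% of all genes on the higher side. This count moved with single arrays. It was 7 without VEGF 3, control 1 or control 2, 8 without VEGF 2 and 13 without control 4, against 2.4% to 3.51% of all genes in those fits, and 32 without VEGF 1 or without control 3 (5.9% and 5.19% of all genes). The methods' t-test, on the same values, gave 8, against 3.31% of all genes. In bulk tissue, more cells in mitosis and more of these transcripts per cell cannot be told apart.

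**Figure D2:**
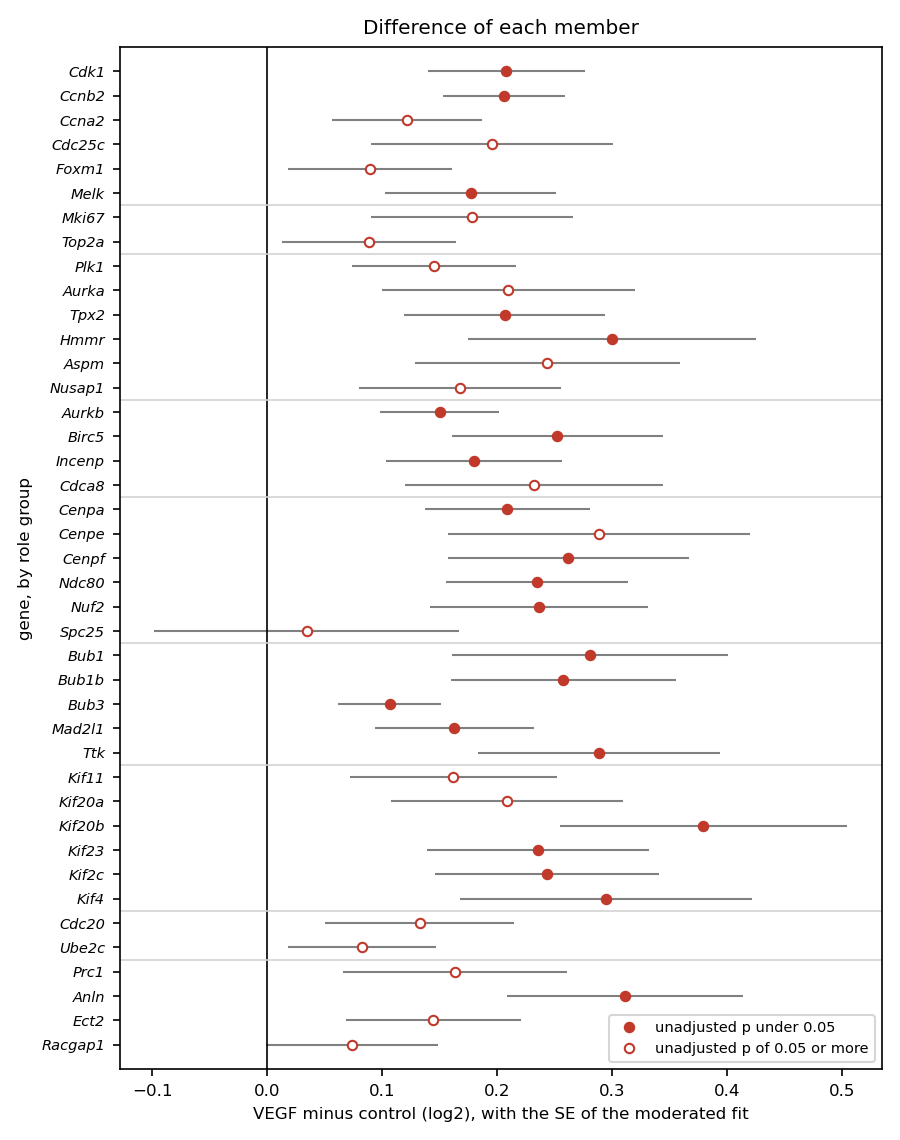
Difference of each of the 41 members (VEGF-labelled minus control, log2) with the SE of limma's moderated fit, n = 4 arrays each, ordered by role group. All 41 points lie to the right of 0, and the 22 filled ones have an unadjusted p under 0.05.

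Arrays of the same group lay further apart than the group means. The mean over the 41 members was -0.059, 0.11, 0.31 and 0.053 in VEGF 1 to 4, against -0.17, -0.22, 0.068 and -0.057 in control 1 to 4. The group means of these array values were 0.10 ± 0.15 in the VEGF-labelled arrays and -0.095 ± 0.13 in control (SD, n = 4 each). VEGF 3 was the highest array by a wide margin, and it held the highest value of the 8 arrays in 39 of the 41 members, against 12.4% of all genes. VEGF 2 held the other 2, Bub3 and Kif20b. The lowest value lay in control 2 for 30 of the 41 members, against 10.6% of all genes, and in control 1 for 8. VEGF 1 and control 3 ran against their groups. VEGF 1 was above 0 in 2 members and control 3 in 39, and VEGF 1 was below control 3 in 39 of the 41.

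The groups overlapped in nearly all members. They did not overlap in 2 of the 41, Ccnb2 and Aurkb, where 2.13% of all genes were separated on the higher side. VEGF 3 exceeded every control array in 41 members, VEGF 2 in 29, VEGF 4 in 20 and VEGF 1 in 2. Without control 3 the groups separated in 21 of the 41, against 5.12% of all genes, and without VEGF 1 in 18, against 4.34%. Leaving out any other single array kept the count at 2, against 2.61% to 4.42% of all genes in those fits.

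**Figure D3:**
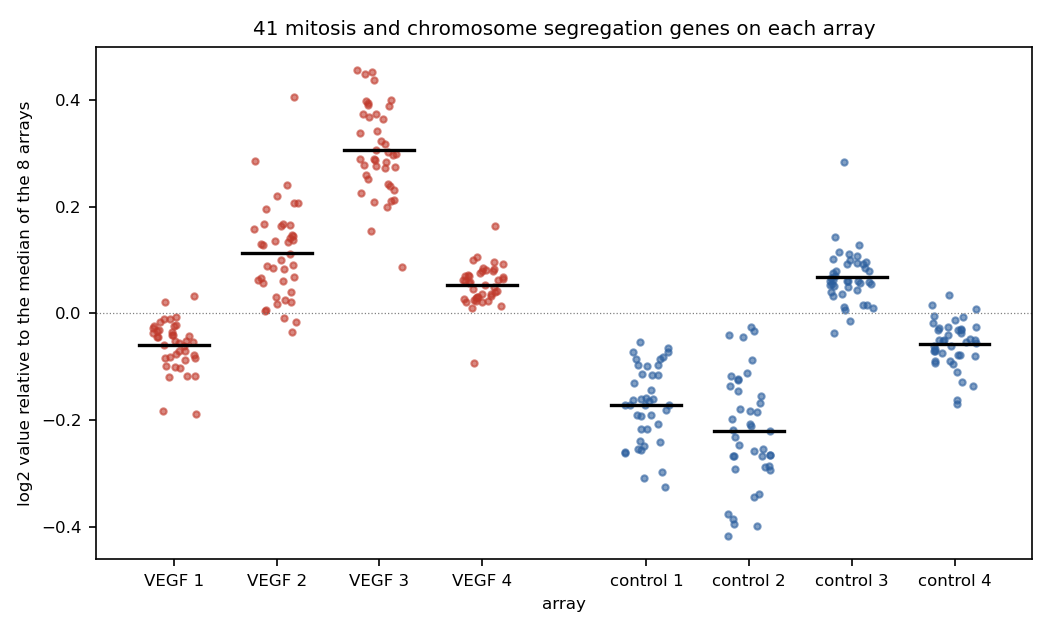
Values of the 41 members on each array (log2, relative to the median of the 8 arrays), VEGF-labelled arrays in red and control arrays in blue, with a black bar at the mean over the members. VEGF 3 is highest, control 1 and control 2 are lowest, and VEGF 1 lies below control 3.

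Among the genes of mitotic entry, Ccnb2, the B-type cyclin 2, stood farthest from control relative to its spread. Ccnb2 was at 0.033, 0.16, 0.26 and 0.075 in VEGF 1 to 4, against -0.096, -0.033, -0.036 and -0.13 in control 1 to 4. All 4 VEGF-labelled arrays were above all control arrays, the lowest being VEGF 1. The difference was 0.21 with an SE of 0.0531, and its adjusted p in limma was 0.243. Its kinase Cdk1 was at -0.023, 0.14, 0.21 and 0.023 in VEGF 1 to 4, against -0.22, -0.17, 0.037 and -0.14 in control 1 to 4. Here VEGF 1 and VEGF 4 lay below control 3, and the difference was 0.21 with an SE of 0.0684 (limma, adjusted p = 0.289). Foxm1, the transcription factor that activates many of the other members in G2, was at -0.083, 0.018, 0.23 and 0.071 in VEGF 1 to 4, against -0.072, -0.12, 0.095 and -0.018 in control 1 to 4. VEGF 3 was the highest array and control 3 the second, so the groups were interleaved, and the difference was 0.089 with an SE of 0.0713 (limma, adjusted p = 0.685). Melk, a kinase enriched in neural progenitors, differed by 0.18, Cdc25c, a phosphatase that removes the inhibitory phosphates from Cdk1, by 0.20, and the A-type cyclin Ccna2 by 0.12. Of the 6 measured genes in this group, 3 had an unadjusted p under 0.05 and the median difference was 0.19. For this and every other role group, the share over all genes on the higher side was 4.62%.

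Mki67 encodes Ki-67, which coats mitotic chromosomes and is the usual stain for cycling cells. It was at -0.043, 0.13, 0.21 and 0.025 in VEGF 1 to 4, against -0.21, -0.26, 0.11 and -0.025 in control 1 to 4. VEGF 3 and VEGF 2 were the highest and control 2 and control 1 the lowest, with control 3 above VEGF 1 and VEGF 4. The difference was 0.18 with an SE of 0.088 (limma, adjusted p = 0.455). Top2a, topoisomerase II alpha, which untangles sister chromatids, was at -0.081, 0.13, 0.16 and -0.093 in VEGF 1 to 4, against -0.053, -0.21, 0.057 and -0.037 in control 1 to 4. The groups overlapped widely, and the difference was 0.088 with an SE of 0.0757 (limma, adjusted p = 0.715). Its value is the mean of 2 probe sets that disagreed. The probe set annotated to the RefSeq transcript differed by 0.21, and the one annotated only to a cDNA clone by -0.032.

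The spindle assembly genes had a median difference of 0.21, and 2 of 6 had an unadjusted p under 0.05. Hmmr encodes a spindle-associated hyaluronan receptor that acts with Tpx2. It was at -0.076, 0.13, 0.46 and 0.16 in VEGF 1 to 4, against -0.098, -0.42, 0.076 and -0.088 in control 1 to 4. This was the widest range of any member, 0.872 between control 2 and VEGF 3, and the difference was 0.30 with an SE of 0.125 (limma, adjusted p = 0.379). Aspm, a spindle pole protein whose loss in people causes microcephaly, was at -0.099, 0.16, 0.37 and 0.050 in VEGF 1 to 4, against -0.26, -0.29, 0.11 and -0.050 in control 1 to 4. VEGF 1 lay below control 4 and control 3, VEGF 4 lay below control 3, and the difference was 0.24 with an SE of 0.115 (limma, adjusted p = 0.436). Aurka, the centrosomal Aurora kinase, differed by 0.21, its activator Tpx2 by 0.21, the Polo kinase Plk1 by 0.15 and the microtubule bundler Nusap1 by 0.17. In Aurka the value of VEGF 3 was 0.45 and those of the other VEGF-labelled arrays were -0.036 to 0.069.

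All 4 genes of the chromosomal passenger complex were higher, with a median of 0.21, and 3 had an unadjusted p under 0.05. Aurkb, the kinase of the complex, was at 0.021, 0.063, 0.23 and 0.014 in VEGF 1 to 4, against -0.064, -0.087, -0.014 and -0.11 in control 1 to 4. It is the second member whose groups did not overlap, with VEGF 4 and control 3 the nearest arrays, and the difference was 0.15 with an SE of 0.0518 (limma, adjusted p = 0.31). Birc5, which encodes survivin and docks the complex on the centromere, differed by 0.25, the scaffold Incenp by 0.18 and Cdca8, which encodes borealin, by 0.23.

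Kinetochore genes held both the typical pattern and the clearest exception to it. Ndc80, the microtubule-binding core of the outer kinetochore, was at -0.011, 0.060, 0.27 and 0.080 in VEGF 1 to 4, against -0.25, -0.25, 0.011 and -0.048 in control 1 to 4. VEGF 2, VEGF 3 and VEGF 4 were above all control arrays, VEGF 1 was just below control 3, and the difference was 0.23 with an SE of 0.079 (limma, adjusted p = 0.3). Nuf2, its direct partner in the same complex, differed by 0.24. Spc25, another subunit of that complex, was at -0.19, -0.034, 0.45 and 0.10 in VEGF 1 to 4, against -0.085, -0.041, 0.28 and 0.034 in control 1 to 4. VEGF 3 was again the highest, but control 3 was the second and VEGF 1 the lowest of all, and the difference was 0.034 with an SE of 0.133 (limma, adjusted p = 0.953). It turned negative in 6 of the 19 alternative settings, among them -0.089 without VEGF 3. The centromeric histone Cenpa differed by 0.21, the kinetochore motor Cenpe by 0.29 and the large corona protein Cenpf by 0.26. The group's median was 0.24, and 4 of 6 had an unadjusted p under 0.05.

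Checkpoint genes had the highest median of the 9 role groups, 0.26. All 5 had an unadjusted p under 0.05, against 4.62% of all genes on the higher side. They are among the 22 members whose count was 7 without VEGF 3, control 1 or control 2. Ttk, the kinase Mps1 that starts checkpoint signalling, was at -0.031, 0.21, 0.39 and 0.031 in VEGF 1 to 4, against -0.24, -0.29, 0.061 and -0.079 in control 1 to 4. VEGF 3 and VEGF 2 were above all control arrays, while VEGF 4 and VEGF 1 were below control 3. The difference was 0.29 with an SE of 0.105 (limma, adjusted p = 0.333). The kinase Bub1 differed by 0.28, BubR1, encoded by Bub1b, by 0.26 and Mad2l1, the inhibitor of Cdc20, by 0.16. Bub3, which recruits Bub1 and BubR1 to kinetochores, differed by 0.11 with the narrowest range of all members, 0.252 over the 8 arrays. It was highest in VEGF 2 at 0.17, not in VEGF 3 at 0.087.

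The mitotic kinesins included the member with the largest difference. Kif20b, a kinesin that acts in cytokinesis, was at -0.044, 0.41, 0.40 and 0.060 in VEGF 1 to 4, against -0.25, -0.40, 0.044 and -0.093 in control 1 to 4. VEGF 2 and VEGF 3 were equally high, VEGF 4 was just above control 3 and VEGF 1 was below it. The difference was 0.38 with an SE of 0.125 (limma, adjusted p = 0.289). Kif4, a chromosome-arm kinesin encoded on the X chromosome, differed by 0.29, Kif2c, which removes tubulin at wrong attachments, by 0.24, and Kif23, the motor of centralspindlin, by 0.24. Kif20a, which carries the passenger complex to the midzone, differed by 0.21 and Kif11, the motor that pushes the spindle poles apart, by 0.16. Of the 6, 4 had an unadjusted p under 0.05 and the median was 0.24.

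The lowest median, 0.11, was that of the 2 genes of mitotic exit. Cdc20, the activator of the anaphase-promoting complex, was at -0.054, -0.0085, 0.28 and 0.059 in VEGF 1 to 4, against -0.13, -0.20, 0.063 and 0.0085 in control 1 to 4. Control 3 lay just above VEGF 4 and control 4 above VEGF 2 and VEGF 1. The difference was 0.13 with an SE of 0.0819 (limma, adjusted p = 0.571). Ube2c, the ubiquitin-conjugating enzyme of that complex, differed by 0.082, and neither gene had an unadjusted p under 0.05.

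Among the 4 cytokinesis genes the median was 0.15 and 1 had an unadjusted p under 0.05. Anln, anillin, the scaffold of the contractile ring, was at -0.039, 0.21, 0.37 and 0.094 in VEGF 1 to 4, against -0.24, -0.34, 0.039 and -0.071 in control 1 to 4. VEGF 2, VEGF 3 and VEGF 4 were above all control arrays and VEGF 1 lay between control 4 and control 3. The difference was 0.31 with an SE of 0.102 (limma, adjusted p = 0.289). Prc1, which bundles midzone microtubules, differed by 0.16, Ect2, the exchange factor that activates RhoA at the equator, by 0.14 and Racgap1, the partner of Kif23 in centralspindlin, by 0.074.

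**Figure D4:**
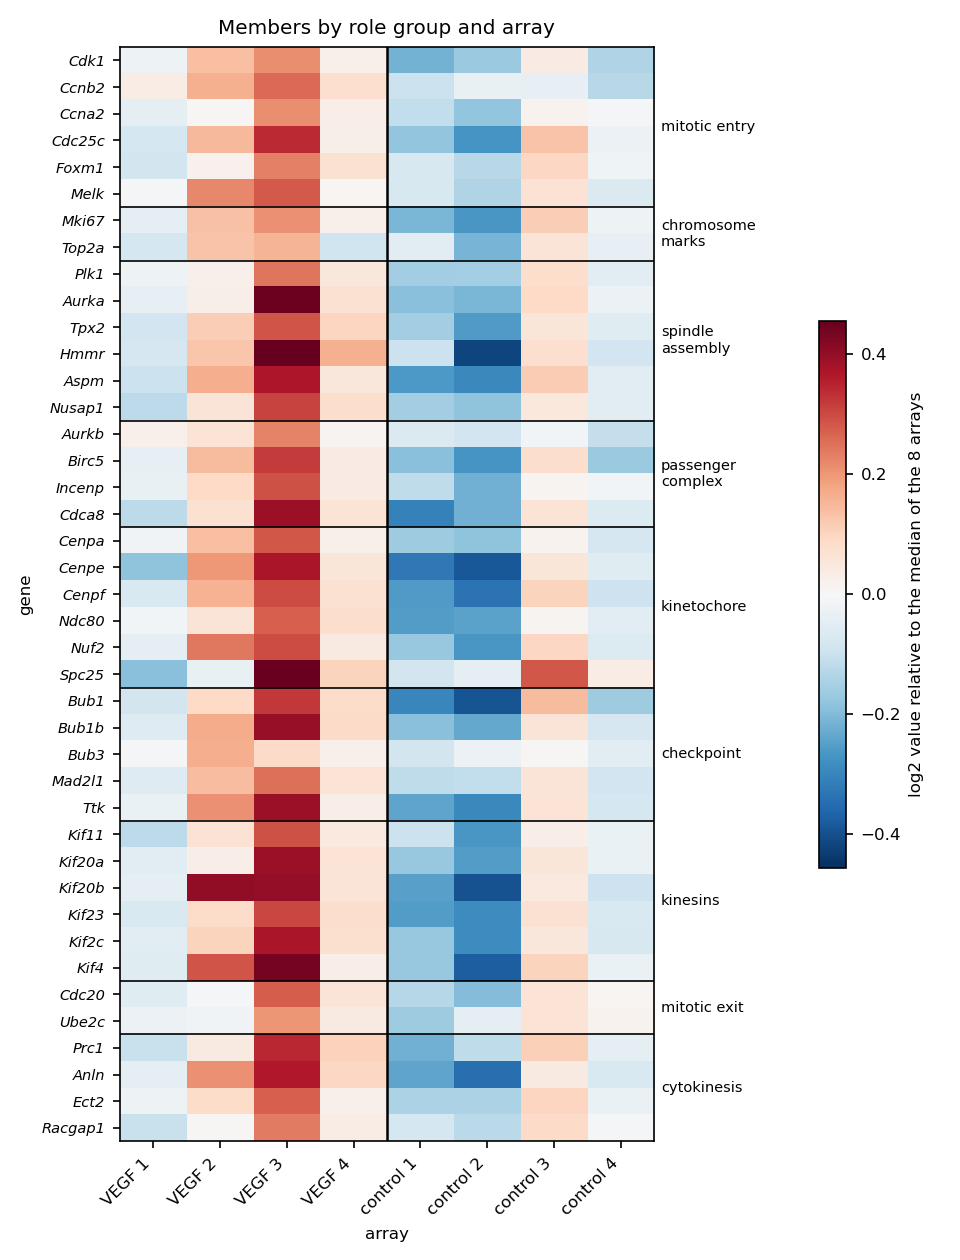
Values of the 41 members (rows, by role group) on the 8 arrays (columns, VEGF-labelled left of the line), as log2 relative to each gene's median. VEGF 3 is red and control 1 and control 2 are blue in all 9 role groups, and control 3 is pale red in 39 of the 41 rows.

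The members varied widely for this table. Their range over the 8 arrays had a median of 0.555, from 0.252 to 0.872, against a median of 0.235 over all genes. Dim probe sets were not filtered, so the all-gene median includes genes whose expression in this tissue is unknown. The 3 arrays with high Xist had the 3 highest member means, VEGF 3, VEGF 2 and control 3. Among these, the members' mean was 0.21 in the 2 VEGF-labelled arrays and 0.068 in the 1 control array. Among the other 5, it was -0.0028 in the 2 VEGF-labelled arrays and -0.15 in the 3 control arrays. The median difference over the members was 0.15 within the first set and 0.16 within the second, where it was -0.0025 over all genes. In each set 40 of 41 members were higher. The first set rests on 1 control array, and the members were high and low on the same arrays, so these are not separate observations. With the female pattern as a covariate in limma the members' median difference was 0.16, with 22 members at an unadjusted p under 0.05, against 4.27% of all genes in that fit.

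Other genes of the cell cycle were taken in 9 lists drawn up by textbook function, whose median differences ran from 0.018 to 0.20. These lists too were chosen with earlier results of these data known. Of 165 measured genes, 148 were higher, 43 of these at an unadjusted limma p under 0.05, against 4.62% of all genes on the higher side. Of the 17 lower ones, 2 had such a p, and no gene passed after adjustment. All 19 genes of condensin and cohesin, the rings that compact chromosomes and hold sisters together, were higher (median 0.17, 6 at an unadjusted p under 0.05). Ncapg of condensin differed by 0.31, and Ncaph2 had the lowest difference at 0.020. Of 31 other kinetochore and centromere genes 28 were higher (median 0.20, 10 at an unadjusted p under 0.05). The histone-fold protein Cenpw was at 0.14, 0.24, 0.58 and 0.067 in VEGF 1 to 4, against -0.15, -0.19, -0.067 and -0.23 in control 1 to 4. All VEGF-labelled arrays lay above all control arrays, and the difference of 0.42 (limma, adjusted p = 0.243) exceeded that of any member. The checkpoint gene Mad1l1 differed by -0.030.

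Other entry regulators were higher in 11 of 11 (median 0.18, 5 at an unadjusted p under 0.05). Cks1b, a small Cdk-binding subunit, differed by 0.27 and the inhibitory kinase Pkmyt1 by 0.058. Among 28 further spindle and cytokinesis genes 26 were higher (median 0.11), with 7 higher and 1 lower at an unadjusted p under 0.05. Ckap2, a microtubule stabiliser, differed by 0.21. Numa1, which anchors spindle poles to the cortex of the cell, was the lower one at -0.095. All 12 centriole and microcephaly genes were higher (median 0.12, 3 at an unadjusted p under 0.05), with Mcph1 at 0.17 and Cep152 at 0.069.

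The list of the anaphase-promoting complex, whose subunits also act outside mitosis, had a median of 0.018. Of 17 genes in that list 12 were higher and 1 had an unadjusted p under 0.05. That gene was Fbxo5, the complex's inhibitor Emi1 and no subunit, at 0.21, and the subunit Anapc2 differed by -0.049. Regulators of the MuvB, DREAM and E2F complexes were mixed, with 12 of 17 higher and a median of 0.11, which was 0.020 without VEGF 3. E2f3, an activating E2F, differed by 0.32, and Lin37, the MuvB subunit needed for repression, by -0.084 (unadjusted p under 0.05 in both). Genes of cell cycle exit had a median of 0.030, with 6 of 8 higher, Btg2, an antiproliferative gene of neurogenic divisions, at 0.19 and Trp53inp1 at -0.075. DNA replication genes were higher in 22 of 22 (median 0.16, 7 at an unadjusted p under 0.05), with the origin recognition subunit Orc1 at 0.40 and Orc6 at 0.054.

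Several of these list medians depended on VEGF 3. Without it they were 0.089 for DNA replication, 0.10 for other kinetochore, 0.11 for other entry and 0.073 for other spindle genes, 0.0021 for the anaphase-promoting complex and 0.015 for cell cycle exit. Without control 2 the medians of other kinetochore genes and the anaphase-promoting complex were 0.12 and 0.010. Without control 1 that of cell cycle exit was 0.015, and without VEGF 1 that of the anaphase-promoting complex was 0.030. Without all 3 arrays of high Xist the medians were 0.099 for DNA replication, 0.11 for other kinetochore, 0.074 for centriole and 0.045 for MuvB, DREAM and E2F genes, 0.0093 for the anaphase-promoting complex and 0.0069 for cell cycle exit. With the female pattern as a covariate they were 0.12 for other kinetochore, 0.11 for other entry, 0.067 for other spindle and 0.056 for MuvB, DREAM and E2F genes and 0.0098 for the anaphase-promoting complex.

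Markers of the cells that divide in the cortex, and of those that do not, differed between the same arrays. The mean of 16 radial glia genes was -0.0051, 0.044, 0.16 and 0.065 in VEGF 1 to 4, against -0.10, -0.062, 0.013 and -0.048 in control 1 to 4. It was highest in VEGF 3 and lowest in control 1, and 12 of 16 genes were higher. Of these, 5 had an unadjusted limma p under 0.05, against 4.62% of all genes on the higher side. Hopx (0.68) and the transcription factor Pax6 (0.23) were among the 5. Intermediate progenitor genes were lower in 8 of 10, with the Notch ligand Dll3 at -0.23 and Rhbdl3 at -0.19. Their list mean was -0.11, -0.15, 0.098 and 0.047 in VEGF 1 to 4, against -0.0059, -0.023, 0.11 and 0.043 in control 1 to 4. Within the groups it was highest in VEGF 3 and control 3, as the mitosis mean was. Among the control arrays control 2 was the lowest in both, but VEGF 2 was the lowest of all in intermediate progenitor genes. Postmitotic neuron genes were lower in 13 of 14 (median -0.19). At an unadjusted limma p under 0.05 there were 8, all lower, against 7.84% of all genes on the lower side. Their list mean was -0.15, -0.17, -0.23 and 0.0084 in VEGF 1 to 4, against 0.12, 0.042, 0.022 and 0.091 in control 1 to 4. VEGF 3, highest in mitosis genes, was lowest here, but control 1, with the highest neuronal mean, was second to control 2 at the low end of mitosis. The transcription factor Bcl11b differed by -0.48 and the synaptic kinase Camk2a by -0.35. With the neuronal list mean as a covariate in limma, the median difference of the members was 0.022, against -0.0064 over all genes. In that fit 32 of 41 were higher and 0 had an unadjusted p under 0.05. Over all genes the share on the higher side was 0.522%, against 4.62% without the covariate. The neuronal mean was lower in every VEGF-labelled array than in any control array, so this fit cannot tell it apart from the group. In the same fit the medians of DNA replication and other kinetochore genes were -0.032 and -0.0041, and those of condensin and cohesin and of centriole genes were 0.026 and 0.027. What part the share of neurons or progenitors in the tissue pieces had in the members' difference was not tested.

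**Figure D5:**
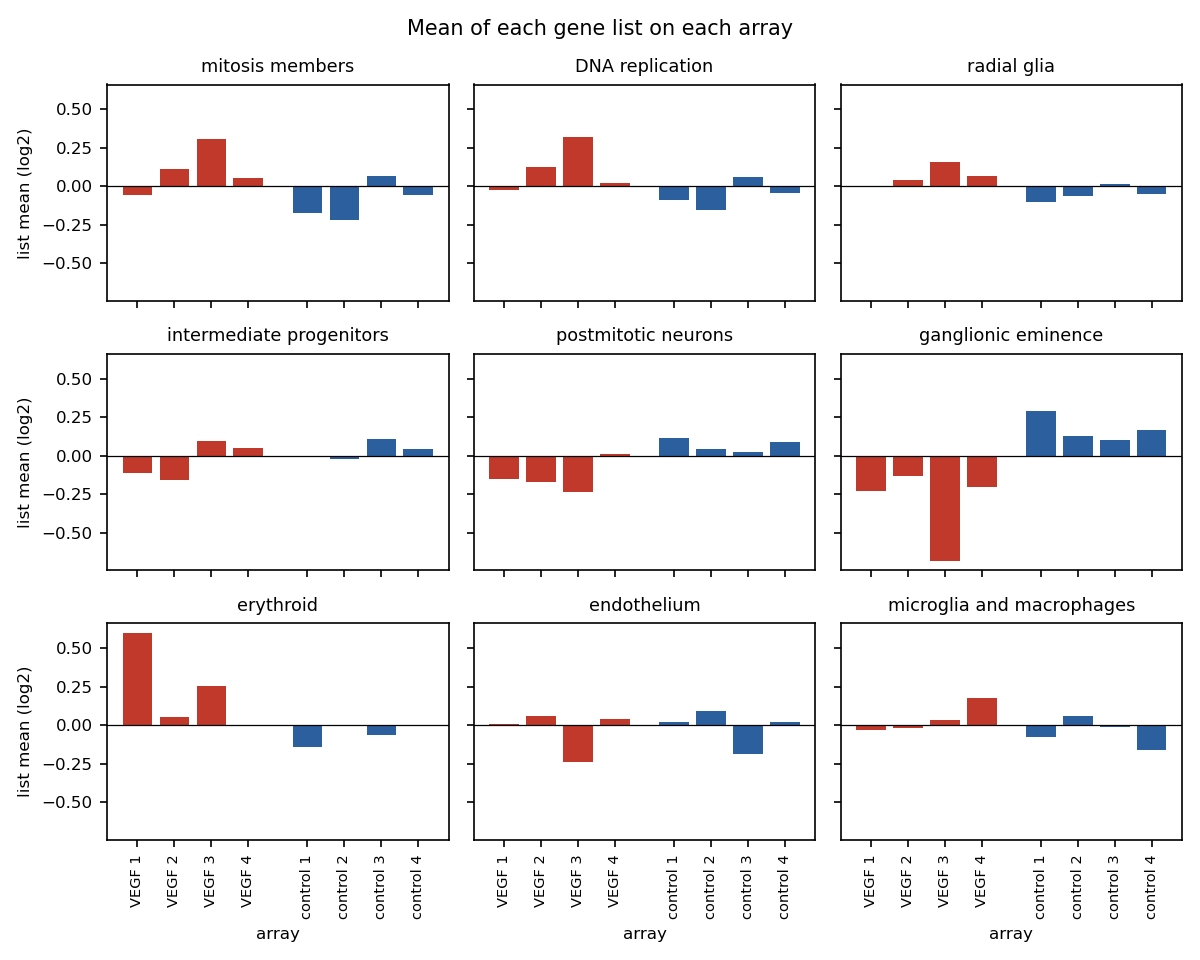
Mean of the mitosis members and of 8 other lists on each array (log2, relative to each gene's median; red VEGF-labelled, blue control). DNA replication and radial glia genes are, like the mitosis members, highest in VEGF 3, and the neuronal and ganglionic eminence lists are lower in the VEGF-labelled arrays.

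Other cells that can divide at this age were covered by shorter lists. Genes of the ganglionic eminence, the ventral source of interneurons with dividing cells of its own, were lower in 11 of 11. At an unadjusted limma p under 0.05 there were 9 of the 11, against 7.84% of all genes on the lower side. Their list mean was between -0.68 and -0.13 in the VEGF-labelled arrays, against 0.10 to 0.29 in control. Lhx6 differed by -1.23 and Dlx2 by -0.62. Erythroid genes were higher in 10 of 11, with a list mean between -0.0087 and 0.60 in the VEGF-labelled arrays, against -0.14 to -0.00031 in control. The heme enzyme Alas2 differed by 0.83 and the embryonic globin Hbb-y by 0.44. The erythroid mean was highest in VEGF 1, at 0.60, the VEGF-labelled array with the lowest mitosis mean. With the erythroid mean as a covariate in limma the members' median difference was 0.24. In that fit 17 members had an unadjusted p under 0.05, against 3.35% of all genes on the higher side. Endothelial genes were higher in 5 of 11, with a median difference of -0.00091 and 0 at an unadjusted limma p under 0.05. The 2 of smallest p were Cldn5 at -0.24 and Tie1 at -0.11. The endothelial list mean was between -0.24 and 0.059 in the VEGF-labelled arrays, against -0.19 to 0.092 in control. The 2 lowest endothelial means were those of VEGF 3, at -0.24, and control 3, at -0.19, which were both high in mitosis genes for their groups. Microglia and macrophage genes were higher in 8 of 11 with a list mean between -0.029 and 0.18 in the VEGF-labelled arrays, against -0.16 to 0.061 in control, with Lyz2 at 0.44 and P2ry12 at -0.28. Genes of oligodendrocyte precursors were lower in 6 of 6 with a list mean between -0.33 and 0.068 in the VEGF-labelled arrays, against -0.090 to 0.10 in control, Gpr17 at -0.12 and Sox10 at -0.096. Meningeal and fibroblast genes were higher in 5 of 8 with a list mean between -0.46 and 0.10 in the VEGF-labelled arrays, against -0.23 to 0.15 in control, Slc6a13 at -0.49 and Col1a1 at 0.15. What part these cells had in the members' values was not tested.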

How the data were processed

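RNA of embryonic day 16 brain cortex was labelled from 120 ng per sample and hybridised to Affymetrix whole-transcript arrays, per the labels' protocols. The authors deposited log values for 28853 probe sets on 8 arrays, taken as log2 because no source states the base, with every probe set's median over the arrays within 5e-07 of 0. Affymetrix Expression Console and build mm8 are named in the submitters' processing notes, and other steps are not given. Centred values keep no brightness, so dim probe sets were not filtered, signal over background is unknown and the number of arrays limits the precision.

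Probe sets with 1 gene symbol (21789) were kept, 1621 with several and 5443 unnamed were left out, and symbols were updated through Entrez identifiers (21698 found) to RefSeq's GRCm38.p6 gene table. Probe sets of a gene were averaged, and 40 of the 41 measured members had 1. Groups came from the sample titles. The test was limma 3.58.1 (R 4.3.3; lmFit and eBayes, no covariates) over all 19938 genes with Benjamini-Hochberg adjustment at 0.05, and it was tested on simulated data. Differences are VEGF minus control. Lists were described by counts and medians, with no test. The members and lists were chosen with earlier results of these data known. Values in every array are given for the member of smallest p in each role group, for Mki67, Cdk1, Top2a, Aspm and Foxm1, and for the smallest and the largest difference. From each other cell cycle list the genes of smallest p and lowest difference are named, and from each marker list the 2 of smallest p. Array values of Aurka, Bub3 and Cenpw and the widest and narrowest ranges were picked after the values were seen. Arrays with Xist above 2 were called female in pattern. Alternatives were the replicate number as a block, array centring, array weights, quantile normalization, eBayes with trend and robust settings, the unpaired test of the series' text (the methods' t-test), single probe sets, 3 covariates, no female-pattern arrays, and leaving out each array.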

Additional observations from a re-analysis of the deposited data

Results flagged for a closer look

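In a group of 4 arrays, an array was marked when its gap to the nearest other exceeded Dixon's critical share of the group's range, which chance alone does in about 1 of 20 groups. Of the members, Mad2l1 was marked in control 3, at 0.060 while the other control arrays were at -0.11, -0.11 and -0.088. The synaptic kinase Camk2a was marked in VEGF 3 at -0.51, the endothelial receptor Tie1 in control 3 at -0.22, and the mean of the meningeal and fibroblast list in VEGF 3 at -0.46. In all, 4 of 210 groups of 4 values were marked.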

How the results depend on the processing

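Leaving out each array in turn moved the members' median difference between 0.14 (without VEGF 3) and 0.26 (without control 3). It moved their count at an unadjusted p under 0.05 between 7 and 32, the count of separated members between 2 and 21, the genes passing after adjustment between 0 and 10 (without VEGF 4, no member among them), and those at an unadjusted p between 479 and 1217 higher and between 1045 and 1664 lower. The medians of the other cell cycle lists kept their sign, that of MuvB, DREAM and E2F genes lying between 0.020 and 0.14. Each of these fits rests on fewer arrays, and the cause of the shifts was not tested.

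Same-numbered VEGF-labelled and control arrays deviated from their group means with correlations of 0.052, -0.13, 0.45 and 0.30 over genes, not all over 0.1, so the numbers were not taken as pairs. VEGF 3 and VEGF 4 correlated best with their own number, and whether numbers mark a litter or a day is not given. With that number as a replicate block, 36 members had an unadjusted p under 0.05 (5.39% of all genes on the higher side) and none passed after adjustment. The methods' t-test gave 8 members. Quantile normalization passed 1 gene. Without the arrays of female pattern 21 members separated (9.89% of all genes did), and 550 genes were higher and 1033 lower at an unadjusted p, and with the erythroid mean in the model 920 were lower.

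With the postmitotic neuron list mean as a covariate the members' median was 0.022 and 0 had an unadjusted p under 0.05, with 104 genes higher and 163 lower. That list mean averaged -0.14 in the VEGF-labelled arrays and 0.068 in control. Every VEGF-labelled array lay below every control array in it, so the covariate cannot be told apart from the group. The medians became 0.026 for condensin and cohesin, 0.024 for other entry regulators, -0.0041 for other kinetochore, -0.0078 for other spindle, -0.017 for anaphase-promoting complex, -0.037 for MuvB, DREAM and E2F and -0.032 for DNA replication genes. Among single genes it turned Cdc25c (-0.027), Melk (-0.026), Top2a (-0.087), Aurka (-0.020), Ube2c (-0.034), Prc1 (-0.0034), Ect2 (-0.040), Racgap1 (-0.043), Spc25 (-0.18), Ncaph2 (-0.064), Cep152 (-0.014), Pkmyt1 (-0.048) and Orc6 (-0.075). Spc25 also turned with the female pattern as a covariate (-0.036), with quantile normalization (-0.0083), without VEGF 3, without control 1 (-0.010) and without the female-pattern arrays (-0.013). Over the fits without 1 array, Spc25 lay between -0.089 and 0.125 and Ncaph2 between -0.016 and 0.039. Ncaph2 turned without VEGF 3 (-0.016) and without the female-pattern arrays (-0.018), Orc6 without the arrays of female pattern (-0.0066), and Trp53inp1 with the erythroid covariate (0.0052). In the 19 alternatives no member passed after adjustment, with adjusted p from 0.149 to 1 in limma or the methods' test.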
